A study of Mus musculus with 23 samples.

Results

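The 9 hematopoietic regulators of granulocyte fate followed through mouse neutrophils were *Spi1*, *Runx1*, *Runx3*, *Gfi1*, *Myb*, *Irf8*, *Lmo2*, *Klf2* and *Klf4*. They were chosen by name and matched by gene symbol and NCBI gene identifier, and all 9 were found among the 21878 genes of every table of sorted neutrophils. Bulk RNA-Seq of CD45+CD11b+Ly6G+ neutrophils gave 17 of the 23 samples of the series. In the tissue comparison, WT mice gave 3 libraries each from bone marrow (BM), peripheral blood (PB) and perfused lung. In the Piezo1 experiment, PB and lung were taken from WT and *Piezo1*-cKO mice, with 2 libraries per group. The *Piezo1*-cKO mice carried loxP sites around exons 20 to 23 of *Piezo1*, which encodes a mechanically gated ion channel, and *Vav1-iCre*, which acts in all hematopoietic cells and so also in other blood cells and in progenitors. C57BL/6J is the strain that the methods name for mice of the study, and the labels give no strain, age or treatment. PB and lung cells, but not BM cells, went through a negative selection step before sorting. The methods also describe enzyme digestion of lung tissue, and none for PB or BM. Differences of lung from PB or BM cannot be told apart from effects of this handling.

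Neutrophils arise in BM from progenitors that divide, fill granules in order and then leave for blood. PU.1, encoded by *Spi1*, is the ETS factor that drives myeloid commitment, and RUNX1 acts beside it in stem and progenitor cells. GFI1 represses monocyte genes and is needed for granulocyte maturation, whereas IRF8 favors monocytes and dendritic cells. MYB and LMO2 are factors of stem and progenitor cells, and MYB falls as cells stop dividing. KLF2 restrains inflammatory activation of myeloid cells and KLF4 promotes monocyte differentiation, while RUNX3 is best known from lymphocytes and from restraining myeloid proliferation.

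On GRCm38, *Spi1* lies at chr2:91082390-91115756 and *Lmo2* at chr2:103957986-103981878, both on the plus strand. *Runx1* lies at chr16:92601466-92826149 on the minus strand and *Runx3* at chr4:135120652-135177990 on the plus strand. *Gfi1* at chr5:107716657-107726036 and *Myb* at chr10:21124935-21160984 are on the minus strand, and *Irf8* at chr8:120736358-120756694 is on the plus strand. *Klf2* lies at chr8:72319033-72321656 on the plus strand and *Klf4* at chr4:55527143-55532466 on the minus strand.

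Promoter sequences are shown for *Runx3*, *Klf2* and *Myb*, the members with the largest tested difference in favor of lung, PB and BM. They are RefSeq sequences of build GRCm38.p6, written 5′ to 3′ on the strand of the gene. Those of *Runx3* and *Myb* end at the base before a RefSeq start. For *Runx3* this start lies a few bases upstream of the GENCODE start of the gene given above. Bases that lay in annotated exons were left off. For *Klf2* these were the 29 bases next to its RefSeq start, so the printed sequence ends upstream of them. Capitals mark matches, on either strand, to 6 motifs: AGGAAGT (ETS with the PU.1 flank), TGTGGT (RUNX), CACCC (KLF), AACNGT (MYB), AATCAC (GFI) and GAAANNGAA (IRF). Windows were held for 7 of the 9 members, not including *Spi1* and *Lmo2*.

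The *Runx3* sequence lies upstream of the more distal of 2 starts, at chr4:135120448-135120644 on the plus strand.
Runx3: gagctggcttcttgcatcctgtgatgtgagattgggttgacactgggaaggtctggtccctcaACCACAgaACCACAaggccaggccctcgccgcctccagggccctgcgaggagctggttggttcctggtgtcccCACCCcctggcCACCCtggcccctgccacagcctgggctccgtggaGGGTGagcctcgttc
The *Klf2* sequence is at chr8:72318812-72319032 on the plus strand.
Klf2: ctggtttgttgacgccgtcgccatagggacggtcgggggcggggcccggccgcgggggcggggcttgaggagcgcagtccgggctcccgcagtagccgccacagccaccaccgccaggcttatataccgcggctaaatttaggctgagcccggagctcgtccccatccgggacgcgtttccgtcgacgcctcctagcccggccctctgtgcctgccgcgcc
The *Myb* sequence is at chr10:21160985-21161234 on the minus strand.
Myb: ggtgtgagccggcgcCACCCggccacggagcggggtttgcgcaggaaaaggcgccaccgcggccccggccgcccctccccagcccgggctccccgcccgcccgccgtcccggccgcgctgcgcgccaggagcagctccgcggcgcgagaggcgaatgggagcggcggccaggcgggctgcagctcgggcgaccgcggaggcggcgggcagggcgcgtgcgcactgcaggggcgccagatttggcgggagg
The *Runx3* sequence held 2 RUNX matches, both read as ACCACA, that began 134 and 126 bases before the RefSeq start, and 3 KLF matches. TGTGGT occurred in 14.0% and CACCC in 52.0% of 32851 promoter windows of 250 bases. The *Myb* sequence held 1 KLF match, 235 bases before the start, and the printed *Klf2* sequence held no match to any of the 6 motifs. The full *Klf2* window of 250 bases, with its exon bases, held 1 KLF match, and the shares given here are over full windows. AGGAAGT occurred in 7.69% of all windows, AACNGT in 22.3%, AATCAC in 9.14% and GAAANNGAA in 7.13%. Letters in a window do not show binding.

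Levels are given as FPKM, fragments scaled to gene length and library size, and so can be compared between genes within a table. Differences are on log2(FPKM + 1), which understates the change of genes with low values. A gene was called when its log2 difference was beyond 1 in either direction and limma's adjusted p was below 0.05. The study counts the samples of the tissue comparison as mice, while the labels tie no library to a mouse and no source used here does so for the Piezo1 experiment, where p-values may measure only technical spread. Libraries of the tissue comparison held 16502162 to 19330811 reads, and those of the Piezo1 experiment 9621120 to 15034817, where 1 *Piezo1*-cKO PB library was the shallowest. The sorting markers *Ly6g*, *Itgam* and *Ptprc* were at 50 FPKM or more in every library, and *Ly6g* was lower in lung (54.5 ± 1.43, SD, n = 3) and PB (101 ± 13.1) than in BM (772 ± 10.7). In bulk libraries, fewer cells of a type and less RNA per cell cannot be told apart.

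Over all genes tested, the median difference was -0.54 for lung against PB and -0.70 for lung against BM. Rescaling by the median ratio, which centers the typical gene, moved genes up by a median of 0.56 and 0.70. The median differences were then -0.01 and -0.05. Rescaling moved the calls for lung against PB from 587 higher and 1476 lower to 927 and 459, and for lung against BM from 812 and 2965 to 1548 and 1200. For members and for list totals, rescaled values are given beside the deposited ones where they turn a direction or change a count.

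*Spi1* was the most abundant of the 9 genes in BM and lung. Its levels were 397, 394 and 382 FPKM in BM, 642, 615 and 707 in PB, and 429, 435 and 421 in lung. All PB libraries lay above all lung libraries, and these above all BM libraries. *Spi1* ranked 3 in BM, 6 in PB and 9 in lung among 1368 genes annotated to a transcription factor family. PB exceeded BM by 0.74 (SE 0.06, adjusted p = 1.77e-05), a linear fold of 1.68, and lung exceeded BM by 0.13 (SE 0.02, adjusted p = 0.000225), or by 0.95 after rescaling. Lung minus PB was -0.61 (SE 0.06, adjusted p = 3.73e-05) as deposited and 0.02 after rescaling, so the direction between lung and PB depends on the scale.

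*Runx1* and *Runx3*, which bind the same DNA motif, had different patterns. *Runx1* was at 6.25, 6.82 and 7.05 FPKM in BM, 5.70, 6.59 and 6.28 in PB, and 4.93, 4.77 and 4.91 in lung. *Runx3* was at 2.16, 2.52 and 1.98 in BM, 2.38, 2.35 and 3.71 in PB, and 8.28, 11.2 and 9.06 in lung. Every lung library was below all others for *Runx1* and above all others for *Runx3*, while BM and PB overlapped for both genes. *Runx3* was higher in lung than in PB by 1.47 (SE 0.16, 95% interval 1.11 to 1.83, adjusted p = 4.3e-05), a linear fold of 3.37. Against BM, *Runx3* was higher in lung by 1.70 (SE 0.10, adjusted p = 9.49e-08), a fold of 4.28. PB minus BM was 0.23 for *Runx3* (adjusted p = 0.183) and -0.10 for *Runx1* (adjusted p = 0.27), with 95% intervals of -0.10 to 0.56 and -0.28 to 0.08. *Runx1* was -0.29 in lung against PB (adjusted p = 0.00623) and -0.39 against BM (adjusted p = 0.000147) as deposited, and 0.24 and 0.30 after rescaling.

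The ratio of *Runx3* to *Runx1* within a library does not depend on library scaling. It was 0.281 to 0.369 in BM, 0.358 to 0.591 in PB and 1.68 to 2.34 in lung. *Runx3* was thus below *Runx1* in every BM and PB library and above it in every lung library. Both libraries of each lung group of the Piezo1 experiment also lay above 1, at 1.54 and 1.44 in WT and 1.42 and 1.48 in *Piezo1*-cKO. *Runx3* rose from rank 393 in BM and 365 in PB to rank 148 in lung among transcription factor genes.

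**Figure D1:**
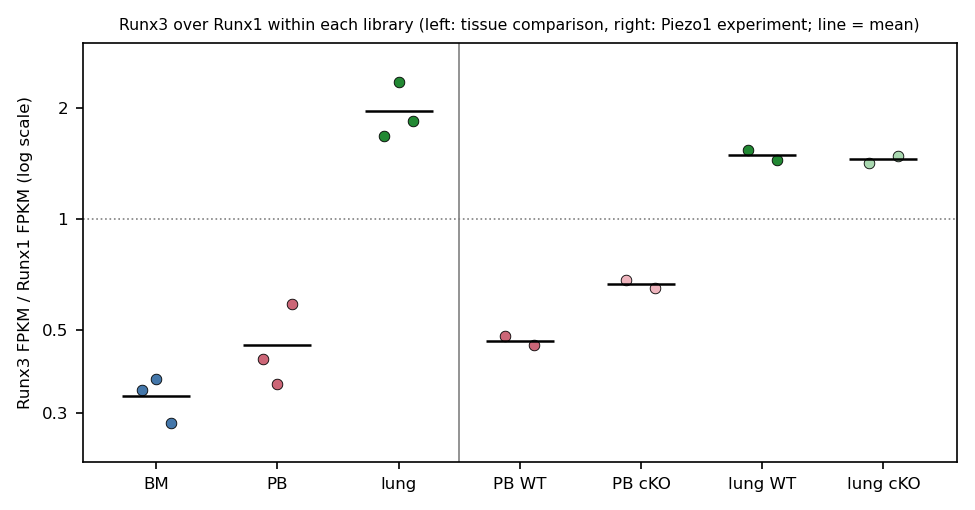
*Runx3* FPKM divided by *Runx1* FPKM in each library, on a log axis, with 1 point per library and a line at each group mean. The 3 groups of the tissue comparison are on the left and the 4 groups of the Piezo1 experiment on the right. All lung libraries lie above 1 (dotted) and all BM and PB libraries below it.

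*Gfi1* and *Myb* were BM genes in these data. *Gfi1* was at 6.0, 5.23 and 5.84 FPKM in BM, 0.556, 0.535 and 0.229 in PB, and 0.808, 0.884 and 0.419 in lung. *Myb* was at 7.80, 6.09 and 6.77 in BM, 0.269, 0.244 and 0.214 in PB, and 0.201, 0.185 and 0.193 in lung. For both genes all BM libraries lay above all PB and lung libraries. In lung, *Gfi1* was lower than in BM by -1.98 (SE 0.11, adjusted p = 4.38e-08) and *Myb* by -2.72 (SE 0.09, adjusted p = 6.89e-10). Linear folds were larger, with BM at 8.08 times lung and 12.9 times PB for *Gfi1*, and 35.7 times lung and 28.4 times PB for *Myb*. In PB against BM, *Gfi1* was lower by -2.22 (adjusted p = 7.14e-07) and *Myb* by -2.66 (adjusted p = 1.25e-07). Both genes passed the filter against BM only through their BM level, so the filter set the direction of these tests. Neither gene passed the filter for lung against PB, where *Gfi1* rested on 16 to 57 reads per library and *Myb* on 12 to 18.

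*Irf8* was close to the detection limit in all tissues. It was at 0.288, 0.241 and 0.143 FPKM in BM, 0.0164, 0 and 0 in PB, and 0.0679, 0.0679 and 0.106 in lung. These values stand for 9 to 19 reads in BM, 0 to 1 in PB and 4 to 6 in lung. BM lay above lung and lung above PB in every library, but *Irf8* never passed the filter and was not tested. The ratio of lung to PB was 15.1, with a counting interval of 2.29 to 637 from 14 reads against 1.

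*Lmo2* was at 27.1, 27.2 and 28.4 FPKM in BM, 8.22, 10.9 and 9.64 in PB, and 8.12, 8.17 and 8.49 in lung. PB and lung overlapped, and both lay below BM. *Lmo2* was lower than in BM by -1.44 in PB (SE 0.09, adjusted p = 3.24e-06) and by -1.63 in lung (SE 0.04, adjusted p = 1.52e-10). After rescaling the latter was -0.87 and was no longer called. Lung minus PB was -0.19 (95% interval -0.41 to 0.04, adjusted p = 0.105), -0.28 without PB replicate 1 (adjusted p = 0.0173), and 0.38 after rescaling (adjusted p = 0.00833).

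Markers of dividing and immature cells moved with these BM genes. The summed FPKM of a list of 5 progenitor markers was 21.1 to 22.2 in BM, 0.939 to 1.01 in PB and 2.09 to 2.66 in lung, most of it from *Mki67* and *Kit*, with *Mpo*, *Elane* and *Cd34* at means of 0.458 or less. *Mki67* itself, a proliferation gene, was at 16.2 in BM, 0.0524 in PB and 1.46 in lung, and *Top2a* at 15.8, 0.0627 and 0.139. The monocyte and macrophage list of 8 genes summed to 666 to 804 in BM, 253 to 302 in PB and 186 to 192 in lung. Most of this sum was *Ly6c2*, and of the 4 list members tested against BM, 2 were higher and 2 lower in both PB and lung (*Adgre1* at 1.49 and 1.35, *Ly6c2* at -2.60 and -3.36). Of all genes tested, 7.85% were called higher and 14.1% lower in PB against BM, and 9.86% and 36.0% in lung against BM. *Marco* was at 0 in every PB library, and no member of the list was at 0 throughout BM or lung. The dendritic list summed to 0.21 or less in every library of the tissue comparison. The part of these cells in the differences was not tested.

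*Klf2* had the largest log2 difference of the 6 genes tested between lung and PB, with 104, 105 and 106 FPKM in BM, 858, 851 and 800 in PB, and 147, 153 and 151 in lung. The 3 tissues did not overlap, in the order PB, lung and BM. *Klf2* was lower in lung than in PB by -2.47 (SE 0.05, 95% interval -2.59 to -2.35, adjusted p = 6.54e-09), a fold of 5.56 in favor of PB. PB exceeded BM by 2.98 (SE 0.05, adjusted p = 7.55e-09), a fold of 7.98. Lung exceeded BM by 0.52 (SE 0.02, adjusted p = 1.2e-08), which was not called as deposited but reached 1.33, and a call, after rescaling. *Klf2* stood at rank 4 among transcription factor genes in PB, 15 in BM and 18 in lung. The ratio of *Klf2* to *Spi1* was 1.28 in PB, 0.268 in BM and 0.351 in lung, but 0.43 in WT PB and 0.131 in WT lung of the Piezo1 experiment, so *Klf2* exceeded *Spi1* only in PB of the tissue comparison.

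*Klf4* was at 0.120, 0.119 and 0.0715 FPKM in BM, 1.28, 1.37 and 0.795 in PB, and 2.03, 1.82 and 2.47 in lung. The tissues did not overlap, but the order was the reverse of that of *Myb*, and reads per library were only 4 to 7 in BM, 45 to 77 in PB and 95 to 124 in lung. *Klf4* was higher in lung than in BM by 1.49 (SE 0.09, adjusted p = 5.87e-08), a linear fold of 20.4. It passed the filter for this comparison only through its lung level, so the filter set the direction of that test. Against PB it was higher in lung by 0.54 (SE 0.13, adjusted p = 0.00509), a fold of 1.83 that did not reach the size threshold. PB against BM was not tested because too few libraries reached 1 FPKM.

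**Figure D2:**
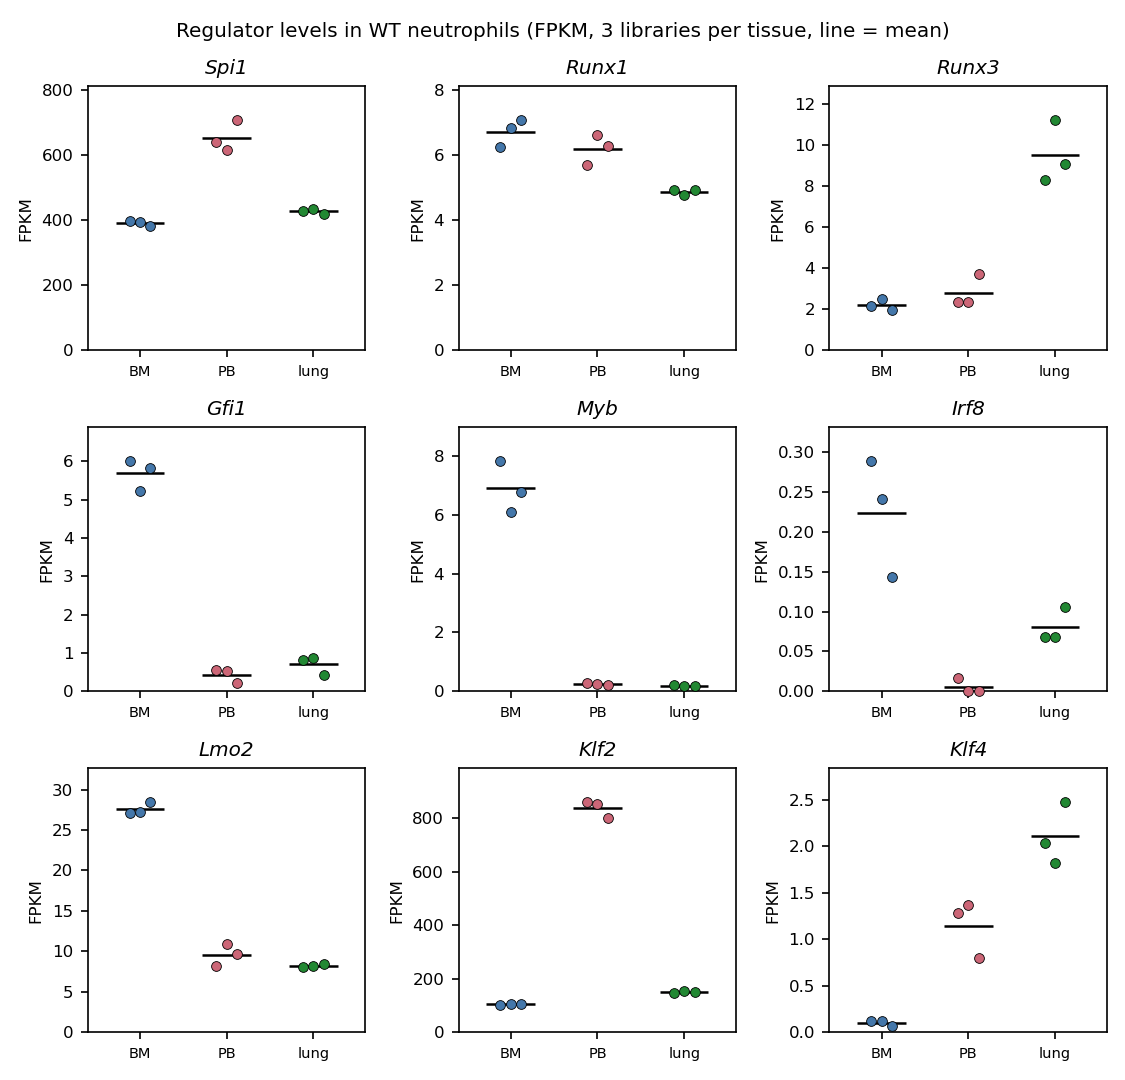
FPKM of the 9 regulators in the 3 BM, 3 PB and 3 lung libraries of WT mice, with 1 panel per gene, 1 point per library, a line at the mean and linear axes from 0. *Klf2* and *Spi1* peak in PB, *Runx3* and *Klf4* in lung, and *Gfi1*, *Myb*, *Irf8* and *Lmo2* in BM.

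Of the 9 genes, 6 passed the filter for lung against PB, and 1 was called higher (*Runx3*) and 1 lower (*Klf2*). Over all genes tested, 7.75% were called higher and 19.5% lower. For lung against BM, 8 were tested, with 2 higher (*Runx3* and *Klf4*) and 3 lower (*Gfi1*, *Myb* and *Lmo2*), beside 9.86% and 36.0% of all genes. After rescaling, 3 members were higher and 2 lower, since *Klf2* was called higher and *Lmo2* was no longer called. Beside them, 1548 and 1200 of all 8236 genes tested were called after rescaling. For PB against BM, 7 were tested, with 1 higher (*Klf2*) and 3 lower (*Gfi1*, *Myb* and *Lmo2*), beside 7.85% and 14.1%. By adjusted p alone, 5 of 6 differed between lung and PB, where 85.5% of all genes did. *Gfi1* and *Myb* passed the filter against BM only through their BM level, and *Klf4* through its lung level.

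The Piezo1 experiment asked how deletion of *Piezo1* bears on neutrophils of PB and lung. *Piezo1* itself was at 5 and 5 reads in PB of WT mice, 3 and 10 in *Piezo1*-cKO PB, 8 and 8 in WT lung, and 7 and 4 in *Piezo1*-cKO lung. These are reads over the whole gene, which do not single out exons 20 to 23, and they are too few to check the genotype. In the tissue comparison *Piezo1* was at 1.21 FPKM in BM, 0.335 in PB and 0.291 in lung. In WT of the Piezo1 experiment it was at 0.0382 in PB and 0.0574 in lung. FPKM is scaled to library size, and this difference between the experiments was not tested. The *Piezo1*-cKO PB libraries stood apart in a list of 5 erythroid markers, which summed to 910 to 972 FPKM there, 20.8 to 20.9 in WT PB and 4.64 or less in lung. They also had reads in fewer genes, 11217 and 11752 against 14103 and 14200 in WT PB.

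*Runx3* was at 1.69 and 1.61 FPKM in PB of WT mice, 2.99 and 2.57 in *Piezo1*-cKO PB, 6.48 and 6.26 in WT lung, and 6.14 and 6.05 in *Piezo1*-cKO lung. Both *Piezo1*-cKO PB libraries were above both WT PB libraries, and in lung both *Piezo1*-cKO libraries were below the WT libraries by little. In PB the difference was 0.51 (SE 0.11, 95% interval 0.26 to 0.76, adjusted p = 0.00722), a fold of 1.68. Without WT PB replicate 2 it was 0.49 with an adjusted p of 0.0544. In lung it was -0.06 (95% interval -0.23 to 0.12, adjusted p = 0.557). Across the separate lung and PB tables, the test of the difference between these effects gave -0.57 for lung minus PB (SE 0.12, 95% interval -0.83 to -0.30, adjusted p = 0.00455). *Runx3* was the only one of 5 members tested that passed this test by adjusted p, which 48.2% of all genes did, and no member passed the size threshold, which 6.85% did. The erythroid list moved with *Runx3* in PB and its part in the result was not tested.

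*Klf2* was at 407 and 409 FPKM in PB of WT mice, 462 and 525 in *Piezo1*-cKO PB, 98.1 and 104 in WT lung, and 113 and 116 in *Piezo1*-cKO lung. The *Piezo1*-cKO libraries were above the WT libraries in both tissues. The difference was 0.27 in PB (SE 0.06, adjusted p = 0.00989) and 0.18 in lung (SE 0.04, adjusted p = 0.00771), and its interaction with tissue was -0.09 (95% interval -0.28 to 0.09, adjusted p = 0.361). The adjusted p in PB was 0.0920 without WT replicate 1 and 0.0739 without WT replicate 2, the adjusted p in lung was 0.160 after rescaling, and that of the interaction was 0.0215 without *Piezo1*-cKO PB replicate 1.

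*Lmo2* was at 7.46 and 7.52 FPKM in PB of WT mice, 10.4 and 10.3 in *Piezo1*-cKO PB, 3.32 and 3.55 in WT lung, and 4.89 and 4.96 in *Piezo1*-cKO lung. Groups did not overlap in either tissue. The difference was 0.42 in both PB (SE 0.07, adjusted p = 0.00347) and lung (SE 0.09, adjusted p = 0.00616), or 1.38 and 1.44 times WT on the linear scale. The erythroid list was also higher in *Piezo1*-cKO PB than in WT PB, and its part in the *Lmo2* difference in PB was not tested.

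*Spi1* was at 946 and 952 FPKM in PB of WT mice, 973 and 1007 in *Piezo1*-cKO PB, 773 and 771 in WT lung, and 754 and 770 in *Piezo1*-cKO lung. The genotype difference was 0.06 in PB (95% interval -0.03 to 0.15) and -0.02 in lung (95% interval -0.07 to 0.03), with adjusted p = 0.212 and 0.464. It was -0.13 in lung after rescaling (adjusted p = 0.00303) and 0.09 in PB without *Piezo1*-cKO replicate 1 (adjusted p = 0.0319). *Runx1* was at 3.51 and 3.54 in PB of WT mice, 4.37 and 3.94 in *Piezo1*-cKO PB, 4.20 and 4.35 in WT lung, and 4.31 and 4.08 in *Piezo1*-cKO lung. Its differences were 0.19 in PB (95% interval -0.03 to 0.41, adjusted p = 0.131) and -0.02 in lung (95% interval -0.22 to 0.18, adjusted p = 0.839). Lung libraries overlapped between genotypes for *Runx1*.

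No member was called between genotypes in lung or in PB, where 0.995% and 3.65% of all genes were. By adjusted p alone, 2 of 5 members tested differed in lung (*Lmo2* and *Klf2*) and 3 of 5 in PB (*Runx3*, *Lmo2* and *Klf2*), beside 50.7% and 49.7% of all genes. Calls over all genes in lung went from 51 higher and 13 lower to 36 and 18 after rescaling.

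**Figure D3:**
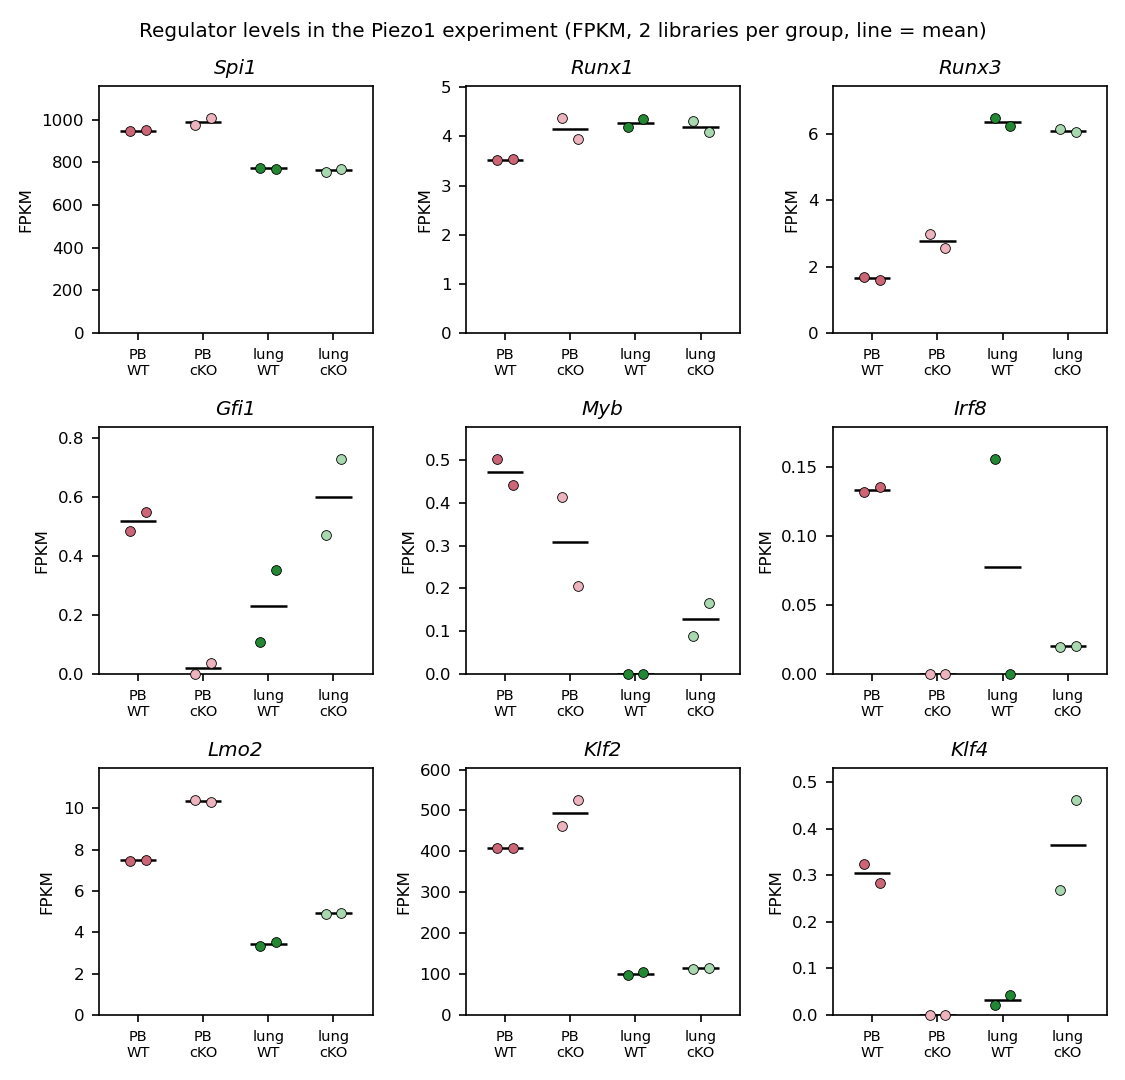
FPKM of the 9 regulators in the Piezo1 experiment, with 1 panel per gene, 2 points per group, a line at the mean and linear axes from 0. The *Runx3* levels of *Piezo1*-cKO PB (2.99 and 2.57) lie above those of WT PB (1.69 and 1.61), whereas the lung groups lie at 6.05 to 6.48. *Klf4* and *Irf8* are at 0 in both *Piezo1*-cKO PB libraries.

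Of the other 4 genes none was tested in this experiment, since too few libraries reached 1 FPKM. *Klf4* had 13 reads in each WT PB library and 0 in each *Piezo1*-cKO PB library, 1 and 2 in WT lung, and 12 and 20 in *Piezo1*-cKO lung. With *Piezo1*-cKO PB set at the floor of 3 reads over the group, *Klf4* was 7.31-fold lower there than in WT PB. In lung, *Klf4* in *Piezo1*-cKO was at 11 times WT (counting interval 3.45 to 56.2). *Gfi1* had 24 and 31 reads in PB of WT mice, 0 and 2 in *Piezo1*-cKO PB, 6 and 20 in WT lung, and 26 and 39 in *Piezo1*-cKO lung. *Klf4* and *Gfi1* thus had their lowest reads in *Piezo1*-cKO PB, and in lung both had more reads in each *Piezo1*-cKO than in each WT library. Other genes with as few reads were often lost as well. Of 508 genes with 10 to 19 reads in both WT PB libraries, 112 (22%) were at 0 in both *Piezo1*-cKO PB libraries, and of 571 genes with 20 to 39 reads, 82 (14.4%) had 3 reads or fewer over the pair. For lung, 80 of 496 genes (16.1%) with 10 to 19 reads in both *Piezo1*-cKO libraries had 3 reads or fewer over both WT libraries.

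*Myb* had 25 and 25 reads in PB of WT mice, 15 and 11 in *Piezo1*-cKO PB, 0 and 0 in WT lung, and 5 and 9 in *Piezo1*-cKO lung. *Irf8* had 6 and 7 reads in PB of WT mice, 0 and 0 in *Piezo1*-cKO PB, 8 and 0 in WT lung, and 1 and 1 in *Piezo1*-cKO lung. *Irf8* was at least 3.65-fold lower in *Piezo1*-cKO PB than in WT PB, and *Myb* at least 4.82-fold higher in *Piezo1*-cKO lung than in WT lung. Such losses were again common, since 38.4% of genes with 5 to 9 reads in both WT PB libraries were at 0 in both *Piezo1*-cKO PB libraries, and 19.8% of those with 5 to 9 in *Piezo1*-cKO lung were at 0 in WT lung. Counting intervals cover counting error only, and folds over the floor leave out the counting error of the other group.

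Lung against PB was measured again within each genotype of the Piezo1 experiment. These values come from separate deposited tables for lung and for PB, in which FPKM was scaled within each library, so the comparison crosses tables. In WT, *Runx3* was higher in lung by 1.48 (SE 0.08, adjusted p = 2.35e-06) and *Klf2* lower by -2.0 (SE 0.03, adjusted p = 5.79e-09). These were linear folds of 3.86 for *Runx3* in lung over PB and 4.04 for *Klf2* in PB over lung. In *Piezo1*-cKO, *Klf2* was lower by -2.10 (SE 0.06, adjusted p = 6.57e-07) and *Runx3* higher by 0.91 (SE 0.09, 95% interval 0.68 to 1.14, adjusted p = 0.000118), a fold of 2.19 just short of the size threshold. *Runx3* was called there after rescaling, at 1.41. In WT, 1 of 5 members tested was called higher and 1 lower, beside 7.5% and 26.5% of all genes, and in *Piezo1*-cKO 0 and 1, beside 7.93% and 23%. Over all genes, rescaling took the calls from 536 higher and 1893 lower to 921 and 660 in WT, and from 568 and 1644 to 965 and 558 in *Piezo1*-cKO.

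*Spi1* was at -0.30 in WT and -0.38 in *Piezo1*-cKO as deposited, and at 0.42 and 0.26 after rescaling. *Lmo2* was lower in lung by -0.94 in both genotypes (adjusted p = 1.81e-05 in WT and 3.23e-05 in *Piezo1*-cKO), where the tissue comparison gave -0.19. *Runx1* was at 0.22 in WT (adjusted p = 0.0332, and 0.0635 to 0.103 with any 1 library left out) and 0.01 in *Piezo1*-cKO (adjusted p = 0.913), where the tissue comparison gave -0.29. *Klf4* also differed in direction, with lung at 1.83 times PB in the tissue comparison and WT PB at 9.20 times WT lung in the Piezo1 experiment (counting interval 2.82 to 47.5, on 26 and 3 reads). *Runx3* and *Klf2* were the members called in both WT data sets. The differences between the experiments were not tested.

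**Figure D4:**
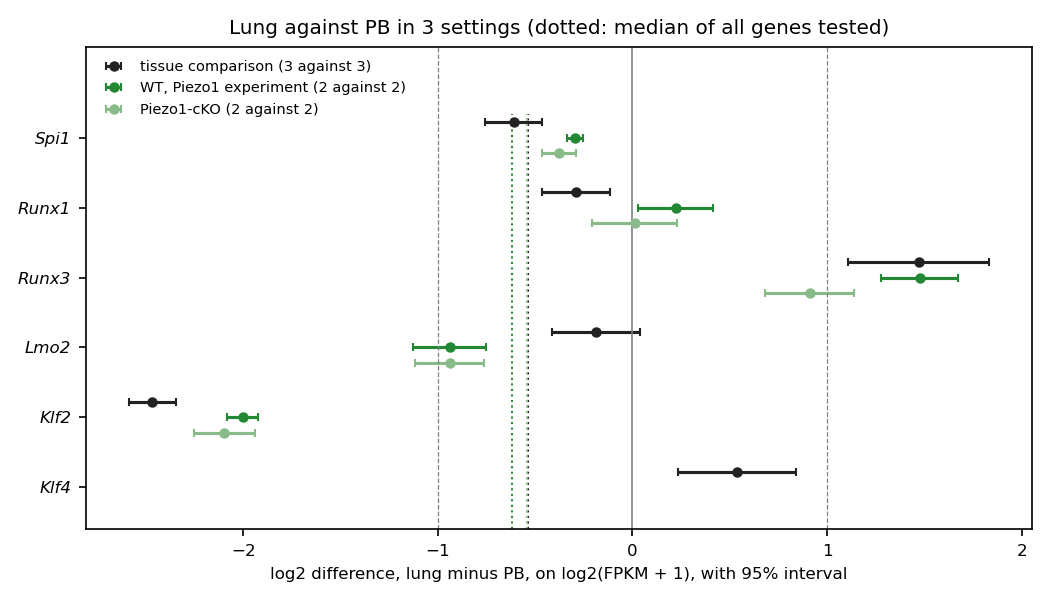
Log2 difference of lung minus PB on log2(FPKM + 1) with its 95% interval for the 6 members tested in the tissue comparison (black), and for the 5 tested in WT (dark green) and *Piezo1*-cKO (light green) of the Piezo1 experiment. Dashed lines mark the size threshold of 1 and dotted lines the median of all genes. *Klf2* lies beyond -2.0 and *Runx3* between 0.91 and 1.48 in the 3 settings, and the *Runx1* points lie on both sides of 0.

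Partners and relatives of the 9 genes came from a list of 71 other regulators, and their differences are those of the deposited scale. After rescaling no called gene of the lists changed sign, but calls were both lost and gained. CBFB is the shared non-DNA-binding partner of the RUNX proteins. *Cbfb* was at 25.8 ± 1.19 FPKM in BM, 19.9 ± 0.494 in PB and 8.75 ± 0.115 in lung (SD, n = 3), and was lower in lung than in PB by -1.10 and than in BM by -1.46, of which -0.52 and -0.70 remained after rescaling, without a call. *Runx2* was not called in any comparison, at 7.5, 12.1 and 8.05 FPKM in BM, PB and lung. The *Runx3* rise in lung was thus measured beside a lower *Cbfb* level.

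KDM1A and RCOR1 are corepressors that act with GFI1. *Kdm1a* was lower in lung than in BM by -1.02 and than in PB by -1.15, and *Rcor1* lower than in BM by -1.54 in lung and -1.15 in PB. After rescaling only the *Rcor1* difference in PB of these 4 was still called. *Gfi1b*, the paralog of *Gfi1*, was at 0.0574 FPKM in BM, 0.329 in PB and 0.259 in lung. *Mybl2*, a relative of *Myb*, was at 0.957, 1.05 and 0.807, and did not have the BM pattern of *Myb*. *Irf4*, a relative of *Irf8*, was at 0.0123 or less. *Ldb1*, whose protein bridges LMO2 complexes, was not called in any comparison, at 16.0, 17.7 and 11.2.

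*Klf6* shared the PB peak of *Klf2*, at 129 FPKM in BM, 318 in PB and 99.9 in lung. As deposited, *Klf6* was lower in lung than in BM, whereas *Klf2* was higher. *Klf6* was higher in PB than in BM by 1.29 and lower in lung than in PB by -1.66, and by -2.23 and -2.0 in WT and *Piezo1*-cKO of the Piezo1 experiment. Of 8 other KLF genes tested, 0 were higher and 5 lower in lung than in PB, beside 7.75% and 19.5% of all genes. The ratio of *Klf2* to *Klf6* was 0.812 in BM, 2.63 in PB and 1.51 in lung, so *Klf2* varied more than *Klf6* between these 3 tissues. In WT of the Piezo1 experiment the ratio was 1.04 in PB and 1.22 in lung, and *Klf6* had the larger difference.

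C/EBP factors work with PU.1 and GFI1 in granulocyte maturation. *Cebpe*, which is needed for the later granules, was at 203 ± 7.68 FPKM in BM, 15.4 ± 0.873 in PB and 3.73 ± 0.503 in lung, and was lower in lung than in BM by -5.44 (adjusted p = 7.67e-13). *Cebpa* was at 17.7, 23 and 2.70 and was lower in lung than in PB by -2.72. All 5 C/EBP genes were called between lung and PB, 1 higher (*Cebpb*, 1.70) and 4 lower, beside 7.75% and 19.5% of all genes.

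Over the 71 regulators, 51 were tested for lung against PB, of which 5 were higher and 25 lower, with a median of -0.96 beside -0.54 for all genes. Of all genes, 7.75% were higher and 19.5% lower. After rescaling, 9 regulators were higher and 12 lower, beside 927 and 459 of all 7577 genes tested. The largest differences on the deposited scale were *Hhex* (-3.20), *Cebpd* (-3.00), *Rara* (-2.91) and *Cebpa* (-2.72). For lung against BM, 8 were higher and 23 lower of 52, led by *Cebpe*, *Ets2* (4.76), *Erg* (-3.93) and *Klf5* (-3.83). The median was -0.72 beside -0.70, and 9.86% of all genes were higher and 36.0% lower. After rescaling, 11 regulators were higher and 11 lower (median -0.18), beside 1548 and 1200 of all 8236 genes tested. For PB against BM, 12 were higher and 7 lower of 53, with a median of 0.16 beside -0.12. Here 7.85% of all genes were higher and 14.1% lower. Between genotypes none was called of 48 tested in lung or 50 in PB, beside 0.995% and 3.65% of all genes. The medians were 0.21 and 0.02 beside 0.09 and 0.02. At the interaction, *Elf4* (1.27) and *Klf16* (1.05) were higher and *Id2* (-1.52) lower of 51 tested, beside 6.85% of all genes.

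Genes known as targets of the 9 factors were read from a list of 31. The KLF4 targets were *Cd14*, an LPS coreceptor, and *Cdkn1a*, a cell cycle inhibitor, and both were called higher in lung than in PB and BM and in PB than in BM. *Cdkn1a* was higher in lung than in PB by 5.46 and *Cd14* by 4.60. *Cdkn1a* was the only target called between genotypes, lower in *Piezo1*-cKO PB by -1.66 (SE 0.10, adjusted p = 0.000197), with an interaction of 1.52. That is 1 of 18 targets tested in PB and 0 of 18 in lung, beside 3.65% and 0.995% of all genes. At the interaction, 1 target was higher and 1 lower of 18 tested, beside 6.85% of all genes called in either direction. *Klf4*, which had too few reads to be tested in the Piezo1 experiment, had none in *Piezo1*-cKO PB. *Cdkn1a* was at 388 FPKM in WT and 351 in *Piezo1*-cKO lung, where *Klf4* had 3 and 32 reads. *Cdkn1a* was higher in WT lung than in WT PB by 5.80, where *Klf4* had fewer reads. A link between these genes was not tested.

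Among PU.1 targets, 7 of 8 were tested, and 2 were higher and 2 lower in lung than in BM. *Cybb*, a subunit of the NADPH oxidase, was lower than in BM by -4.90 in lung and -4.73 in PB, and *Tlr4* was lower in lung than in PB by -1.45 (-0.86 after rescaling, not called), while *Spi1* was called in none of these comparisons. Of 4 tested genes known to be repressed by GFI1, 2 were higher in lung than in BM and 0 lower, and *Csf1*, which encodes a macrophage growth factor, was higher by 3.69 in lung and 3.31 in PB. *Id2*, another of them, was higher in lung than in PB by 1.01 and lower in PB than in BM by -1.31. Of 6 MYB targets only *Kit*, a progenitor growth factor receptor, was tested against BM, at -1.71 in PB and -1.81 in lung, and it passed the filter only through its BM level. Of the KLF2 targets, *Thbd*, which encodes thrombomodulin, was higher in PB than in BM by 1.85 and lower in lung than in PB by -1.64. *S1pr1*, which encodes a receptor for exit from tissue, did not have this pattern, at 1.56 FPKM in BM, 0.436 in PB and 0.409 in lung, and at 0.659 in WT and 0.0576 in *Piezo1*-cKO PB. Over the list, 3 were higher and 2 lower of 19 in lung against PB (median -0.17), 7 and 3 of 21 in lung against BM (median 0.64) and 9 and 3 of 20 in PB against BM (median 0.74). After rescaling these were 6 and 1 (median 0.41) for lung against PB, a turned sign of the median, and 11 and 2 (median 1.37) for lung against BM. Of all genes, 7.75% were higher and 19.5% lower for lung against PB as deposited, and 9.86% and 36.0% for lung against BM. For PB against BM these shares were 7.85% and 14.1%. After rescaling, 927 and 459 of 7577 were called for lung against PB and 1548 and 1200 of 8236 for lung against BM.

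Genes of the stages of granulopoiesis were also mostly lower outside BM. All 4 proliferation genes were lower than in BM in both PB and lung, but for PB all 4 passed the filter only through their BM level, as did *Top2a*, *Ccnb1* and *Cdk1* for lung. Of 6 genes of the later granules, 6 were lower in lung and 5 in PB, with *Camp* at -6.28, *Ltf* at -6.06 and *Ngp* at -5.73 in lung. Over the list of 20 genes, 2 were higher and 12 lower of 16 in lung against BM (median -2.56), 2 and 9 in PB against BM (median -2.54), and 1 and 2 of 13 in lung against PB (median -0.30, turned to 0.33 after rescaling). After rescaling, 2 and 10 were called in lung against BM and 1 and 1 in lung against PB. Of all genes, 9.86% were higher and 36.0% lower in lung against BM, and 7.85% and 14.1% in PB against BM. For lung against PB these shares were 7.75% and 19.5%, all as deposited. *Mki67* was the gene higher in lung than in PB, by 1.22, and *Cxcr2* (-1.95) and *Mmp9* (-1.04, or -0.41 and not called after rescaling) were lower. *Mki67* passed the filter for lung against PB only through its lung level, so the filter set the direction of that test. None of the 12 stage genes tested was called between genotypes in lung or in PB, beside 0.995% and 3.65% of all genes.

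Over the 17 libraries, on the deposited scale and with each experiment centered on its own mean, the members fell into a few shared patterns. *Spi1* and *Klf2* had a Pearson r of 0.97, *Gfi1* and *Myb* 0.944, *Myb* and *Lmo2* 0.882, and *Myb* and *Klf4* -0.853. The libraries share 7 groups, so these values describe group patterns and carry no p. They also depend on the scale. After rescaling, *Klf2* was still lower in lung than in PB, at -1.84, whereas the *Spi1* difference turned sign. No r was taken on rescaled values. The genes most like *Runx3* were *Ccng2* (0.983), *Slc9a3r1* (0.978) and *Ralgds* (0.977), and *Ralgds* rose from 0.208 FPKM in BM and 0.575 in PB to 37.8 in lung. Those most like *Klf2* were *Ctc1* (0.989), *Haus8* (0.989) and *Fam105a* (0.988), and those most like *Spi1* were *Shisa5* (0.98), *Krt80* (0.975) and *Bnip3* (0.974).

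*Myb* was most like *Prc1* (0.995), *Eif4e3* (0.993) and *Nedd4* (0.993), and *Prc1*, a gene of cell division, was at 6.79 FPKM in BM, 0.302 in PB and 0.239 in lung. *Gfi1* was most like *Trak2* (0.977), *Sh3bgrl* (0.975) and *Mogat2* (0.973), and *Lmo2* like *Nqo2* (0.978), *Usp39* (0.977) and *Plxnc1* (0.974). *Klf4* was most like *Tlr6* (0.967), *Crebl2* (0.963) and *Kctd12* (0.962). *Runx1* had weaker matches, led by *Cdk19* (0.892), *Plcl2* (0.88) and *Taf4* (0.873), as did *Irf8*, led by *F420015M19Rik* (0.861), *Abcc4* (0.857) and *Cpeb4* (0.857).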

How the data were processed

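Neutrophils were sorted from BM, PB and lung and sequenced as polyA RNA. The deposited tables give each library's FPKM by gene, produced by the authors with fastp, HISAT2 and HTSeq on build mm10, in versions not given in the sources used here. The deposited labels name a SMARTER kit and the study's methods a VAHTS kit. The tables also hold the authors' fold changes, p-values and q-values, which were not used, and a whole-lung table of 6 samples was not used here. Gene positions and promoters are those of GRCm38.

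Samples were grouped by their labels. The Piezo1 experiment has a table for lung and a table for PB, so lung against PB and the interaction cross 2 tables, whose FPKM are scaled within each library. Each comparison was fitted on the libraries of its groups with limma-trend (limma 3.58.1, R 4.3.3, eBayes with trend and robust settings) on log2(FPKM + 1). A gene was tested where 3 libraries (2 for the Piezo1 experiment) reached 1 FPKM, and p-values were adjusted by Benjamini-Hochberg over every gene tested. The plan named a count test only if counts were deposited. Whole reads were recovered from FPKM, with 100.0% of values whole within 0.01, and used for read numbers and for limma-voom as an alternative. A count of 0 allows up to 3 reads, and where a fold was taken against such a group the 3 reads were set over the group. On simulated data, 100% of 200 changed genes (a log2 change of 2) were recovered among 7412 genes for lung against PB and 7050 for Piezo1-cKO against WT in PB, with 0% of calls false. The changed genes were drawn from well-expressed genes, with little spread between simulated libraries and a change well past the size threshold. The simulation thus checks the code only, and does not bear on genes with low levels or small differences.

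The 9 genes and all lists were chosen with earlier results of these data known. Named from the lists were the called genes with the largest differences (up to 4 per list and comparison), family partners of the members, and the 3 genes with the highest Pearson r with each member among genes whose mean reached 5 FPKM in some group. *Kit*, *Cebpb*, *S1pr1*, *Adgre1*, *Ly6c2* and the levels of *Ralgds* and *Prc1* were singled out after their values were seen. Alternatives were a pseudocount of 0.1, no filter, rescaling by the median ratio, a replicate block, limma-voom, all libraries in 1 fit, the adjusted p alone, and each library left out. Python 3.11.15, numpy 2.4.6, pandas 2.3.3 and matplotlib 3.10.9 were used.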

Additional observations from a re-analysis of the deposited data

Results flagged for a closer look

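The genotype difference of *Runx3* was not the same in PB and in lung. *Piezo1*-cKO minus WT was 0.51 in PB and -0.06 in lung on log2(FPKM + 1), and the interaction of genotype and tissue was -0.57 (SE 0.12, limma adjusted p = 0.00455, 2 libraries per group). Under the alternatives it lay between -0.79 and -0.49, with an adjusted p of 0.0188 or less. It rests on PB, where both *Piezo1*-cKO libraries were above both WT libraries and where the erythroid markers also differed, at 910 to 972 against 20.8 to 20.9 FPKM. By adjusted p alone 48.2% of all genes passed the same test.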

How the results depend on the processing

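The number of members called was 2 for lung against PB, 5 for lung against BM, 4 for PB against BM, 0 for either genotype comparison and for the interaction, and 2 and 1 for lung against PB in WT and *Piezo1*-cKO of the Piezo1 experiment. By the adjusted p alone these were 5, 8, 5, 2, 3, 1, 5 and 4. For lung against PB in *Piezo1*-cKO the count of 1 became 3 with a pseudocount of 0.1, 2 after rescaling and 3 with limma-voom. With a library left out, counts stayed at their values, except 4 to 5 for PB against BM, where *Klf4* entered the test without PB replicate 3. A library left out of a pair assumes that the lone sample varies like the other group. Same-numbered samples had correlations of -0.102 to 0.106, so the numbers were not taken as pairs, and the replicate block gave the same counts, 2, 5, 4, 0, 0, 0, 2 and 1.

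Rescaling reversed *Spi1* (0.0222), *Runx1* (0.24) and *Lmo2* (0.38) for lung against PB, *Runx1* for lung against BM (0.30), and *Spi1* for lung against PB in WT (0.42) and *Piezo1*-cKO (0.26), since it moves all genes up in lung. Values near 0 changed sign in other fits. With 1 library left out, *Runx1* ranged from -0.0550 to 0.00930 between genotypes in lung and from -0.0480 to 0.0707 for lung against PB in *Piezo1*-cKO. The *Lmo2* interaction was 0.0470 with a pseudocount of 0.1, 0.0552 with limma-voom, and -0.0388 to 0.0378 with 1 library left out. *Irf8* and, in the Piezo1 experiment, *Gfi1*, *Myb* and *Klf4* had too few reads to be tested.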
